A study of Rattus norvegicus with 6 samples.

Results

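Rsad2 is the interferon-induced gene of viperin. The loci around it were examined in what the paper describes as cultured rat VSMCs, the smooth muscle cells that let arteries contract. In these cells SLC2A10 was the target of RNA interference, by the paper's account. SLC2A10 encodes the glucose transporter GLUT10. The members were all loci whose transcript starts and ends lay inside a window of 120 kb on chromosome 6, which began 55954 bases below Rsad2 and ended 50852 bases above it. Coordinates follow the deposited tables (build not given in the sources used here). This window held 3 of the 13685 loci in the files, of which 2 passed the filter on low values. The window was chosen by the fall of Rsad2 in the knockdown libraries, so the comparison of knockdown with control is given for its members as a description, without a test.

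The 6 libraries comprised 2 controls, labelled wild type, which received control virus, and, for each of the interference sequences 2 and 3, 2 libraries labelled SLC2A10-/-. All came from aorta of the rat strain SD (Sprague-Dawley), and the paper describes male rats, cells at passage 3 and short hairpin RNA virus, whereas the titles name siRNA and the extraction text describes frozen aorta. The number before the last in a title was read as the interference sequence and the last as the replicate. Whether replicates were separate cultures is in no label, and the p-values below measure a spread that may be technical. Values are FPKM, a fragment count divided by transcript length and library size, so they are scaled for length and can be set side by side between genes. The number of reads behind a value is unknown. Each library listed 11564 to 11856 loci. Replicate 2 of sequence 3 correlated with the other knockdown libraries at 0.947 to 0.958 across loci, and those among themselves at 0.963 to 0.970. No Ensembl ID of the files (0 of 12224) was paired with a gene symbol in the gene table used, so SLC2A10, the smooth muscle markers and the lists of interferon and viperin partner genes were not analysed here, and the directions below rest on the sample labels. From pathway enrichment, the paper reports broad activation of immune and inflammatory pathways after knockdown, and it does not name Rsad2. By the labels, the interferon-induced Rsad2 was instead lower in the knockdown libraries. The reason for this contrast was not tested.

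Viperin is an enzyme of the endoplasmic reticulum and of lipid droplets that belongs to the radical S-adenosylmethionine family. It converts the nucleotide CTP into an analogue that stops RNA chains made by the polymerases of several viruses. Its gene is switched on by interferon through short DNA motifs called interferon-stimulated response elements. Cmpk2 encodes a nucleotide monophosphate kinase of mitochondria. The gene lies beside Rsad2 in mammals, is induced with it, and its enzyme phosphorylates pyrimidine nucleotides on the way to CTP and UTP.

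The locus of Rsad2, XLOC_038616 (ENSRNOG00000007539), ran on the minus strand of chromosome 6 from 45655954 to 45669148, a span of 13195 bases. The name Rsad2 for this ID came with the choice of the locus, since the files hold no symbols. The second locus, XLOC_037781 (ENSRNOG00000007690), ran on the plus strand from 45683234 to 45694822, a span of 11589 bases. The 2 loci were thus placed head to head, with 14085 bases between their starts. In RefSeq (assembly GRCr8) the next gene on that side of Rsad2 is Cmpk2, also on the opposite strand and with a span of 11503 bases, against 13261 bases for Rsad2. The ID of the second locus was not paired with that or any other symbol, and it is called XLOC_037781 below. The third locus, XLOC_037780, lay on the plus strand from 45656489 to 45656809, a span of 321 bases opposite the end event of Rsad2. It carried the ID of Rsad2, and since no source used here says that strand was counted, its reads cannot be told apart from those of Rsad2.

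The promoters of Rsad2 and of Cmpk2, its neighbour in RefSeq, are shown because interferon genes are commonly read through response elements near the start. Each window runs from 250 bases before the start to 50 bases after it, 5′ to 3′ on the strand of the gene, in GRCr8 coordinates (chr6:48788071-48788370, minus strand, for Rsad2 and chr6:48802600-48802899, plus strand, for Cmpk2). Capitals mark matches to GAAANNGAAA, the letters of the response element, or to GAAANGAAA, with 1 letter between the repeats, searched on both strands. The second pattern was added after the sequences had been seen. The 2 patterns overlap nowhere in these windows.
Rsad2: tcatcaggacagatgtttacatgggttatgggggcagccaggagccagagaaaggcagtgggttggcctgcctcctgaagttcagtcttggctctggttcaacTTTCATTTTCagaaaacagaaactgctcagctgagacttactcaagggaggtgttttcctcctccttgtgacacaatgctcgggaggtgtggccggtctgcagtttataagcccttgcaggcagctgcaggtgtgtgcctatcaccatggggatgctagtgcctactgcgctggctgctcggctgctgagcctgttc
Cmpk2: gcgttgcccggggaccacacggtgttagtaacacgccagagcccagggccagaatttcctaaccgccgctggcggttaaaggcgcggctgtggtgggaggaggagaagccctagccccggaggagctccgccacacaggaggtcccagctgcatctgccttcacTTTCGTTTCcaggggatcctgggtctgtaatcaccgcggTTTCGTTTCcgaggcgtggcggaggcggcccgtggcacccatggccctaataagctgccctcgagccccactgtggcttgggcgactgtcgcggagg

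The Rsad2 window held 1 match to GAAANNGAAA, on the other strand (TTTCATTTTC, bases -147 to -138 from the start), and none to GAAANGAAA. The Cmpk2 window held none of the former and 2 of the latter, both TTTCGTTTC on the other strand, at bases -86 to -78 and -47 to -39. Of 33469 rat promoters of the same length, 3.92% held at least 1 match to GAAANNGAAA. At least 1 match to GAAANGAAA was held by 3.50% and at least 2 by 0.227%. With a C required after GAAANNGAAA, 0.881% of promoters matched and neither of these windows did. A match describes letters and does not show that a factor was bound.

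Rsad2 was among the most abundant loci of the control libraries and low in the knockdown libraries, near the bottom with sequence 2. Its level was 634 and 581 FPKM in controls, 0.156 and 0.449 with sequence 2 and 1.32 and 1.42 with sequence 3. Both controls lay above all 4 knockdown libraries, a separation found in 11.2% of the tested loci. Both libraries of sequence 3 lay above both of sequence 2, as in 26.4% of the tested loci. Ranked from the highest, Rsad2 was number 57 of 11837 listed loci in control replicate 1 and number 89 of 11759 in replicate 2. With sequence 2 it was number 11519 of 11641 and 11179 of 11856, and with sequence 3 number 9758 of 11710 and 9547 of 11564. In percent of the control mean of 607 ± 37.6 (SD, n = 2), 0.0256% and 0.0739% were left with sequence 2 and 0.217% and 0.233% with sequence 3. The lowest and highest remaining levels correspond to 3904-fold and 429-fold below the control mean. The former rests on 1 library at 0.156 FPKM, and the other library of sequence 2 was 1353-fold below. The number of reads behind such low values is unknown. On the scale of log2(FPKM + 1), on which small values are compressed, the difference between the mean of both sequences and control was -8.44 (standard error 0.13), the second lowest of 10648 tested loci. A locus entered the test if 2 or more libraries reached 1 FPKM, and Rsad2 passed through its controls and sequence 3. These are bulk libraries, in which fewer cells that express a gene and less RNA per cell cannot be told apart.

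XLOC_037781 followed the same order of libraries at a lower control level. It had 247 and 227 FPKM in controls, 0.329 and 0.583 with sequence 2 and 1.01 and 1.145 with sequence 3. The 2 controls again lay far above the 4 knockdown libraries, and 11.2% of the tested loci had both controls above all 4. Both libraries of sequence 3 lay above both of sequence 2, as in 26.4% of the tested loci. The control mean was 237 ± 14.1 (SD, n = 2), and between 0.139% and 0.484% of it was left. The difference of both sequences from control was -7.10 on the log2(FPKM + 1) scale (standard error 0.13), the seventh lowest of the tested loci. Over the whole table, 2.86% of the tested loci were below control at an adjusted p under 0.05 from limma. This contrast chose the window, so no call is counted for its members.

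XLOC_037780, the small locus on the other strand opposite the end of Rsad2, was listed in control replicate 1 alone, at 3.37 FPKM, and was not listed in the other 5 libraries, where its level was set to 0. It was too rarely listed to be tested. Its presence in 1 of the 2 libraries with abundant Rsad2 and in none of the others is a single value without a replicate.

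**Figure D1:**
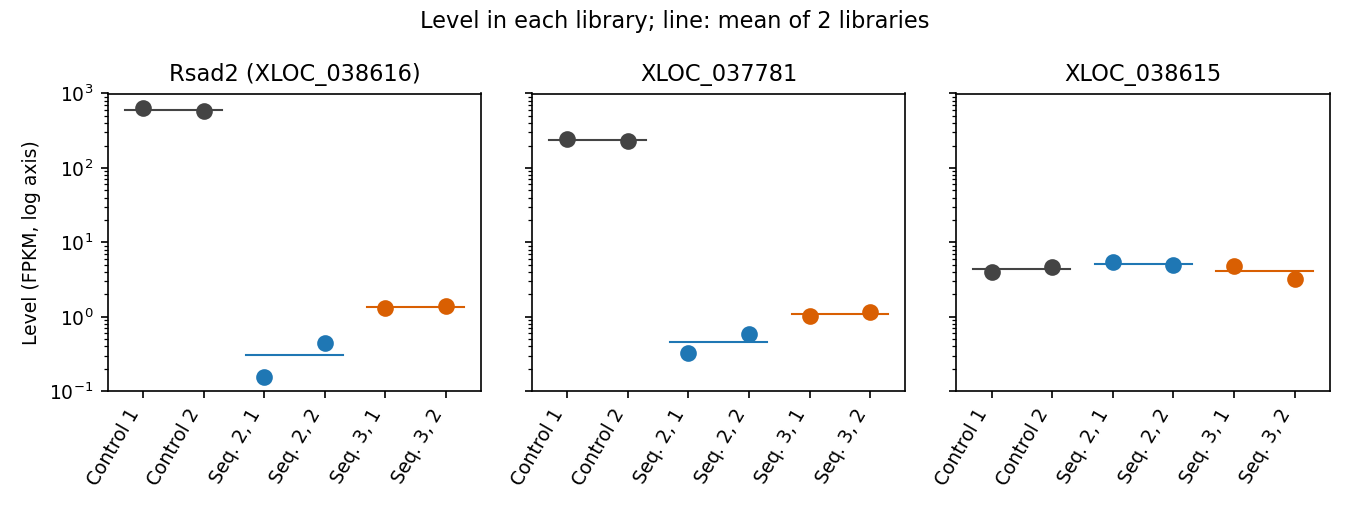
FPKM on a log axis for Rsad2, XLOC_037781 and XLOC_038615, the locus that reaches into the window from the other side, 1 point per library with the mean of each group of 2 libraries as a line. Rsad2 and XLOC_037781 stand at 227 to 634 FPKM in controls and below 1.5 in the knockdown libraries, and XLOC_038615 stays between 3.26 and 5.41 in all 6.

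Rsad2 was lower in the knockdown libraries by a larger factor than XLOC_037781, which is the same as a lower ratio between them there. The FPKM of Rsad2 was 2.57 times that of XLOC_037781 in control replicate 1 and 2.56 times in replicate 2. It was 0.473 and 0.770 times with sequence 2 and 1.30 and 1.24 times with sequence 3. The 2 controls thus had nearly the same ratio, all 4 knockdown libraries had a lower one, and only with sequence 2 was Rsad2 the lower of the pair. The ratios in knockdown rest on values near 1 FPKM or below, for which the number of reads is unknown, and no test was made of them.

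**Figure D2:**
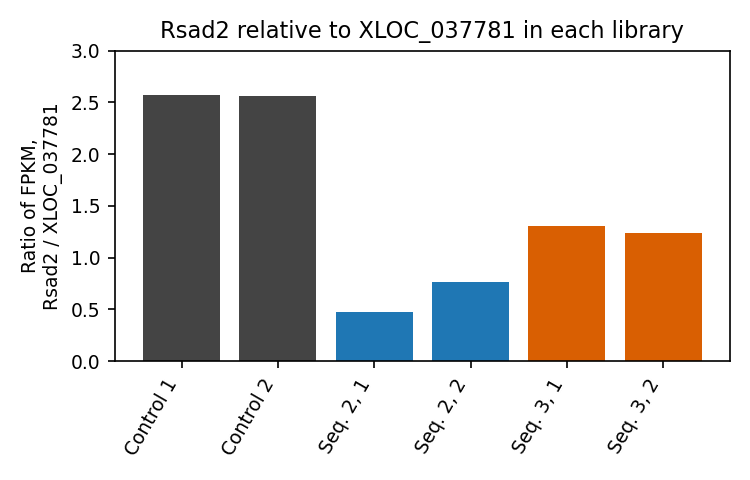
Ratio of the FPKM of Rsad2 to that of XLOC_037781 in each library, as bars from 0. The controls stand at 2.57 and 2.56, sequence 3 at 1.30 and 1.24 and sequence 2 at 0.473 and 0.770.

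Whether the 2 interference sequences left different residual levels was tested across all loci, since the fall against control does not fix this comparison. The mean of Rsad2 was 0.302 ± 0.207 FPKM with sequence 2 against 1.37 ± 0.068 with sequence 3 (SD, n = 2 each), and the lower library of sequence 3 was 2.94 times the higher one of sequence 2. Sequence 3 was thus above sequence 2 without overlap, as in 26.4% of all tested loci. The difference of 0.87 on the log2(FPKM + 1) scale (standard error 0.15, 95% interval 0.50 to 1.25) had an unadjusted p of 0.00144 and an adjusted p of 0.303 from limma, so it did not pass the test over 10648 loci. Without replicate 2 of sequence 3 it was 0.84 (adjusted p = 0.522 from limma). The size of the difference depended on the pseudocount, and with 0.1 in place of 1 it was 1.97 (adjusted p = 0.455 from limma). For XLOC_037781 the gap was smaller, with 0.456 ± 0.180 FPKM for sequence 2 against 1.08 ± 0.093 for sequence 3 (SD, n = 2). Its difference was 0.52 (standard error 0.14, 95% interval 0.16 to 0.88), with an unadjusted p of 0.0126 and an adjusted p of 0.734 from limma, and 1.12 with a pseudocount of 0.1 (adjusted p = 0.660). Of the 2 tested members, 0 passed at an adjusted p under 0.05 and 2 at an unadjusted p under 0.05, as did 580 of all 10648 loci. Of all tested loci, 0.0939% passed the adjusted limit, a count of 10 that was 1 without replicate 1 of sequence 2, 0 without its replicate 2 (401 at an unadjusted p under 0.05 from limma) and 15 without replicate 2 of sequence 3. The count at an unadjusted p under 0.05 was 1748 without replicate 1 of sequence 3. Neither member was called in any of these fits. No other tool was run.

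The same order of the sequences was held by part of the other loci that were far below control. Leaving out the window, 69 loci were lower by at least 10-fold at an adjusted p under 0.05 from limma. Both libraries of sequence 3 were above both of sequence 2 in 31 of them (44.9%, against 26.4% of all tested loci), and the opposite held in 3 (4.35%, against 11.6%). The fitted difference between the sequences was above 0 in 48 (69.6%, against 60.7% of all tested loci), below 0 in 6 and 0 in 15. Its median was 0.32, against 0.07 over all tested loci. These loci share the same 4 libraries and are not independent, and the part of the single libraries in this order was not tested. Picked for their fall against control, they are not matched in level to all tested loci, and the 15 at 0 show no order.

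**Figure D3:**
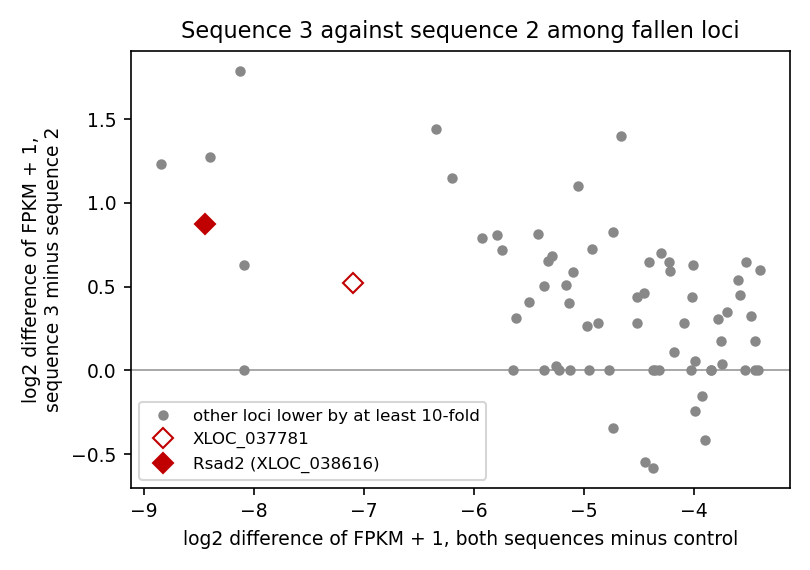
Difference between sequence 3 and sequence 2 (vertical axis) against the difference of both sequences from control (horizontal axis), both in log2(FPKM + 1), for Rsad2, XLOC_037781 and the 69 other loci that were lower by at least 10-fold on that scale. Rsad2 lies at -8.44 and 0.87 and XLOC_037781 at -7.10 and 0.52, and of the other loci 48 lie above 0 on the vertical axis, 6 below it and 15 at 0.

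Rsad2 and XLOC_037781 each had a simple structure in the files, with 1 transcript start, 1 transcript end and 0 splicing events. Of all tested loci, 36.2% had no more than this. The start event of Rsad2 spanned 413 bases, from 45668736 to 45669148, and its end event 2678 bases, from 45655954 to 45658631. For XLOC_037781 the start event spanned 1451 bases and the end event 1838 bases. The same start and end, to the base, were listed in all 6 libraries, with the same FPKM at both. No other start or end was listed in the knockdown libraries at the low levels that remained. The IDs of these loci are also common to all 6 libraries, so the identical positions cannot be read as found separately in each. Whether they come from a model common to all was not tested. Exon skipping and intron retention were not listed for either locus in any library.

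No locus next to the window was lower by a factor near that of Rsad2. The nearest neighbour, XLOC_038615 (ENSRNOG00000007370), began inside the window and ended outside it, on the minus strand from 45509787 to 45629168, and its near end lay 26786 bases from Rsad2. It had 4.03 and 4.61 FPKM in controls, 5.41 and 4.89 with sequence 2 and 4.88 and 3.26 with sequence 3. The libraries of sequence 3 lay on either side of the controls and those of sequence 2 just above them, and the difference of both sequences from control was 0.06 (standard error 0.17, 95% interval -0.37 to 0.49, adjusted p = 0.869 from limma). On the side of XLOC_037781 the nearest listed locus outside the window began 2180 kb beyond it, with 388 and 509.9 FPKM in controls and a range of 536 to 845 in the 4 knockdown libraries (difference 0.60, adjusted p = 0.102 from limma). On the other side the nearest locus wholly outside lay 466 kb before the window and was listed in control replicate 1 alone, at 0.105 FPKM.

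Of the 5 nearest tested loci on each side, 1 was lower and 0 were higher by the limma call, and the 10 differences ranged from -1.09 to 0.71 on the log2(FPKM + 1) scale. The lower one, 1296 kb from Rsad2, had 40.5 and 40.2 FPKM in controls, against a range of 16.7 to 20.2 after knockdown (difference -1.09, standard error 0.13, adjusted p = 0.00739). Without control replicate 1 its adjusted p from limma was 0.0924 and without control replicate 2 it was 0.0799. It was also the only one of 34 tested loci within 5 Mb that was called, with the members left out. Of all tested loci, 2.86% were called lower and 240 of 10648 higher, so the low counts here do not set the region apart. The median difference of those 34 loci was 0.22, against 0.08 over all tested loci.

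**Figure D4:**
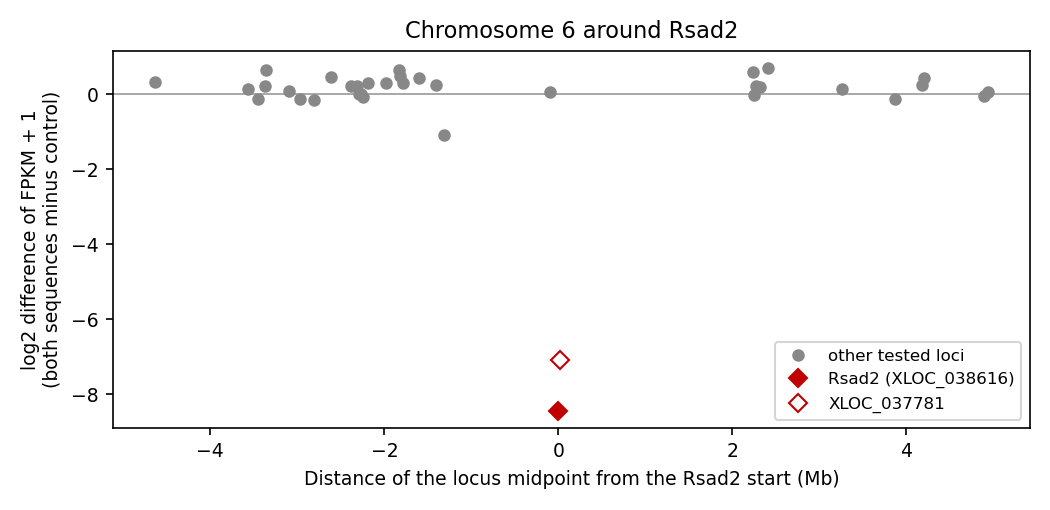
Difference of both sequences from control in log2(FPKM + 1) for each tested locus within 5 Mb of the Rsad2 start, by the distance of its midpoint in Mb. Rsad2 at -8.44 and XLOC_037781 at -7.10 lie far below the other 34 loci, which range from -1.09 to 0.71.

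The loci with the profile most like that of Rsad2 lay on other chromosomes. Likeness was measured as the root mean square difference of log2(FPKM + 1), centred on the control mean, over the 6 libraries. XLOC_001940 (ENSRNOG00000019050), on the plus strand of chromosome 1 from 252906234 to 252940608, was nearest, at 0.23. It had 873 and 799 FPKM in controls, 0.670 and 0.526 with sequence 2 and 3.23 and 2.53 with sequence 3. The next, XLOC_009883 (ENSRNOG00000001959) on chromosome 11, was at 0.38 and had 760 and 651 FPKM in controls, was missing from the tables of sequence 2 and had 1.43 and 1.26 with sequence 3. Both had the high control level and the order of the sequences of Rsad2, traits that the likeness measure itself favours. The other 3, on chromosomes 11, 14 and 16, were at 0.47. Of all 5, both libraries of sequence 3 lay above both of sequence 2 in 3, an order held by 26.4% of all tested loci. The further locus on chromosome 11 was listed in 1 knockdown library and the one on chromosome 16 in none, so that they did not show this order. XLOC_037781 came sixth, at 1.11, and its Pearson's r with Rsad2 over the 6 libraries was 0.9997. An r of at least 0.99 was reached by 127 of 10647 loci. The likeness is a description and says nothing of shared control.

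**Figure D5:**
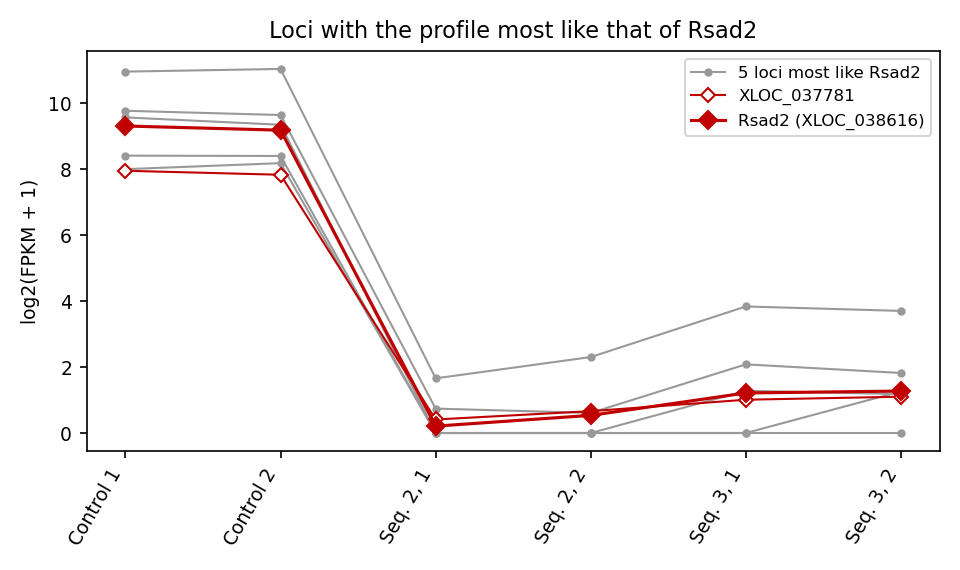
Values of log2(FPKM + 1) in each library for Rsad2, for the 5 loci with the most similar profile and for XLOC_037781; lines join the libraries of 1 locus. In controls all 7 lie at 227 to 2105 FPKM before the logarithm, and in the knockdown libraries at 13.3 or less.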

How the data were processed

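Total RNA of 6 libraries was sequenced. The authors deposited an event table for every library, in which each start, end and splicing event of an assembled locus has an FPKM. The submitters' processing notes name HISAT2 2.0.1, SAMtools 0.1.18, bcl2fastq 2.17.1.14, HTSeq 0.6.1, Trimmomatic 0.30 and StringTie 1.0.4 without their roles. Build and annotation: not given in the sources used here.

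Repeated rows of an event were dropped, and the level of a locus was the larger of its summed starts and its summed ends, or 0 where it was not listed. The files hold no counts, so the depth and the counting error are unknown. The log2(FPKM + 1) values entered limma 3.58.1 (R 4.3.3), fitted with a mean for each of the 3 groups and the mean-variance trend, over 10648 loci with Benjamini-Hochberg adjustment. The model was also run on simulated data with normal noise on the log2 scale. Those data had no floor at 0 and no counting error, so they say nothing of values near 1 FPKM or below. Python 3.11.15 with pandas 2.3.3 read the tables. Promoter sequences came from RefSeq (GRCr8) and matched both symbols searched.

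The members, the lists and the rules were chosen with earlier results of these data known. All members were named, with the 2 loci most like Rsad2 by ID. Pseudocounts of 0.1 and 0.5, other filters, scalings, levels from starts or ends alone, a replicate block and leaving out each library were tried. The gene lists, set by symbol, and their alternatives were not run, because the IDs were not paired with symbols.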

Additional observations from a re-analysis of the deposited data

How the results depend on the processing

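Under 16 other settings neither Rsad2 nor XLOC_037781 was called between the sequences. Both stayed below control, which is no test, since the window was chosen by this fall. On the log2 scale the difference of Rsad2 from control was -9.68 with a pseudocount of 0.1 and -8.97 with 0.5, and that of XLOC_037781 was -8.21, -7.60 and, after quantile normalization, -7.23. A smaller pseudocount compresses low values less. Leaving out 1 library gave -8.52 to -8.36 for Rsad2, -7.16 to -7.03 for XLOC_037781 and 119 to 349 loci lower than control, 119 without either control and 305 with all libraries. There, a lone library of a group takes the spread of the other groups. For sequence 3 against sequence 2, the difference of Rsad2 lay between 0.71 and 1.97, the latter with a pseudocount of 0.1, with an adjusted p from limma of 0.22 to 0.683, and that of XLOC_037781 between 0.39 and 1.12, again with 0.1 at the upper end, with an adjusted p of 0.29 to 1.0. The deviations of same-numbered libraries correlated at -0.0613, 0.178 and -0.0817. These values cannot settle whether the replicate numbers pair the libraries, which no label states. Between the sequences 10 loci were called over the whole table, 18 from starts alone, 14 with a pseudocount of 0.1 or without the trend, and 5 from ends alone or with the replicate block. With that block 260 loci were lower than control, and the adjusted p of Rsad2 between the sequences was 0.579. The lists set by symbol gave no value under any setting. Since the depth is unknown, differences near 1 FPKM or below carry an error that cannot be given.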
